A study of Mus musculus with 4 samples.

Results

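Guanylate-binding proteins (GBPs) and immunity-related GTPases (IRGs) are GTPase families that interferons induce in mice. The genes described are GBP2, GBP3, GBP5, GBP6, GBP7, GBP9, IRGM1, IRGM2, IGTP and IIGP1, which were chosen by name as 10 of the 14718 genes listed. The deposited table writes mouse symbols in capitals, and that spelling is kept. The study compared gene expression at the lesion site of the spinal cord between ApoE3 and ApoE4 mice at 7 and 21 days post injury (dpi). RNA came from a short segment around the lesion and was sequenced as single-end reads. All 4 groups were adult male targeted replacement mice, in which a human ApoE isoform stands in place of the murine gene, and all received a 50 kdyne contusion. The groups were ApoE3 at 7 dpi, ApoE4 at 7 dpi, ApoE3 at 21 dpi and ApoE4 at 21 dpi. Uninjured or sham-operated mice and mice with murine ApoE were not analysed here.

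The methods describe replicate mice for each genotype and time point, whereas the table holds 1 value per gene and group. No difference below has a replicate check, and no test was possible. The values are FPKM, a level scaled to transcript length and library size, and the number of reads behind each is unknown. Every ratio is the log2 of (FPKM + 1) in ApoE3 over (FPKM + 1) in ApoE4, so that a positive ratio means a higher level in ApoE3, and low levels have their change understated. Genes past a 1.3-fold ratio on that scale, the study's own minimum, are counted as higher in a genotype. The entries name each comparison as ApoE3 versus ApoE4, and the values were read in that order. The numbering of the sample columns pairs them the other way, and read so, each genotype difference given here would point the other way. The study reported more genes significantly higher in ApoE4 than in ApoE3 at the later time point. In the reading used, 6753 genes were past 1.3-fold higher in ApoE4 and 231 in ApoE3 at 21 dpi. The study's report has this direction, but it comes from the same data and is no independent check. Which reading holds was not tested.

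GBPs are large GTPases that assemble on the membranes of vacuoles that hold pathogens, and on bacteria, and promote their lysis. IRGs fall into GMS proteins, which sit on the cell's own membranes and hold the effectors inactive there, and GKS proteins, which load onto vacuoles and disrupt them. Both families are induced through interferon-γ and, to a lesser degree, type I interferon, and microglia, astrocytes and infiltrating macrophages of the injured spinal cord can respond to either.

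The promoters of the members are given first, and their part in the ratios between genotypes was not tested. RefSeq windows of 300 bases, from 250 before to 50 after a transcription start (build GRCm38.p6), matched 7 of the 10 genes, with 2 windows for GBP3. GBP6, GBP9 and IIGP1 are named only. An interferon-stimulated response element (ISRE) was searched as GAAANNGAAA or its reverse complement TTTCNNTTTC, and a gamma-activated site (GAS) as TTCNNNGAA, which reads alike on both strands. An ISRE match was in 7 of the 8 windows and in all 7 genes, compared to 3.44% of all 32851 windows. It was also in 5 of 7 windows of other GBP and IRG genes and 7 of 12 windows of type I interferon stimulated genes. A GAS match was in 4 of the 8 windows, compared to 8.30% of all windows. It was in 3 of 7 and 2 of 12 windows of these other lists, which are described below. No ISRE match overlapped a GAS match, but 4 ISRE matches, a pair each in GBP3 and IRGM1, overlapped each other. The 5 windows shown hold an ISRE alone or an ISRE with a GAS, with the matches in capitals. They are GBP2 at chr3:142620413-142620712 (plus strand), GBP7 at chr3:142530086-142530385 (plus strand), IRGM1 at chr11:48871371-48871670 (minus strand), IGTP at chr11:58199306-58199605 (plus strand) and IRGM2 at chr11:58214727-58215026 (plus strand).
GBP2: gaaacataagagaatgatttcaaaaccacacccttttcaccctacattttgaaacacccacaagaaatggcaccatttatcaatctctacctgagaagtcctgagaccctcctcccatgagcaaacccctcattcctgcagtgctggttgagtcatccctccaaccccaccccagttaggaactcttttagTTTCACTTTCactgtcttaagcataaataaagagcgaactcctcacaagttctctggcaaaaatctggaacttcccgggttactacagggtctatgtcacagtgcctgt
GBP7: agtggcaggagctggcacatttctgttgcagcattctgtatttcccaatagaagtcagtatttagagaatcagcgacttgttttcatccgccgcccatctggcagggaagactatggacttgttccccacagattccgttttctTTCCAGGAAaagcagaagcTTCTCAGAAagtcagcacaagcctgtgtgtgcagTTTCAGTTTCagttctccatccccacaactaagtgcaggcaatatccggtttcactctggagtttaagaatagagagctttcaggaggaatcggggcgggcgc
IRGM1: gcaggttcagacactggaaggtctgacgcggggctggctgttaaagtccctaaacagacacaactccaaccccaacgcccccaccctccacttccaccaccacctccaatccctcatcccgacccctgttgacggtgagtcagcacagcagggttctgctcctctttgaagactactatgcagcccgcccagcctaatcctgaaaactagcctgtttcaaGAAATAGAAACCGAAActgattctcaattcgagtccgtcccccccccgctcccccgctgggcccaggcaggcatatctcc
IGTP: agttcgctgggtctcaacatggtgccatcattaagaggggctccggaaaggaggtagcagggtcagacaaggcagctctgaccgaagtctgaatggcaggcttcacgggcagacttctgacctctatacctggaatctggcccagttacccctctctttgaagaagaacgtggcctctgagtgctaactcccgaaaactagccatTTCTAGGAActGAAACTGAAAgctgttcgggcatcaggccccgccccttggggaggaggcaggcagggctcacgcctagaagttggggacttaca
IRGM2: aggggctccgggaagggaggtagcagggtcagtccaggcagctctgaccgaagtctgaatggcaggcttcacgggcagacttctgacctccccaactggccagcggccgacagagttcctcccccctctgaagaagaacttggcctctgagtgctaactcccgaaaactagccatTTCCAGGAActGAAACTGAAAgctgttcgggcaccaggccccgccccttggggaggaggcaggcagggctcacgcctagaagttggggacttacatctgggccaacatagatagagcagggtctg

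The ISRE match of GBP2, TTTCACTTTC, began 59 bases before the start, and no GAS match was in its window. GBP7 held TTTCAGTTTC 53 bases before the start, with GAS matches 106 and 87 bases before it. In IRGM1 the overlapping pair GAAATAGAAA and GAAACCGAAA began 30 and 24 bases before the start. IGTP and IRGM2 held the same ISRE match, GAAACTGAAA, 34 and 64 bases before their starts, next to the GAS matches TTCTAGGAA and TTCCAGGAA. Their windows are near copies in part, with 61 identical bases in a run. At the offset of that run and without gaps, 184 of 270 overlapping bases were identical. Stretches alike at another offset are not in that count. Of the windows not shown, that of GBP5 held TTTCAATTTC 165 bases before the start with GAS matches 245 and 52 bases before it, and 1 of those of GBP3 held TTTCAGTTTC and TTTCTATTTC 45 and 39 bases before the start. A match describes letters in a window and is not a measured binding site.

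At 7 dpi, all 10 members were past 1.3-fold higher in ApoE3, whereas 3.78% of the 14125 listed genes were. The median log2 ratio of the members was 0.60, compared to 0.0020 over all listed genes. The samples are bulk tissue, in which fewer cells of a type and less RNA per cell cannot be told apart.

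GBP2, which targets pathogen vacuoles, was at 11.5 FPKM in ApoE3 and 6.82 FPKM in ApoE4 at 7 dpi, a 1.60-fold ratio. At 21 dpi it was at 5.31 FPKM in ApoE3 and 11.0 FPKM in ApoE4. Its lowest and second lowest values were therefore those of ApoE3 at 21 dpi and ApoE4 at 7 dpi. GBP5, known for its part in assembly of the NLRP3 inflammasome, was at 5.86 FPKM in ApoE3 and 3.79 FPKM in ApoE4 at 7 dpi, a 1.43-fold ratio, and at 4.14 and 5.62 FPKM at 21 dpi. GBP7, known for links to autophagy and oxidase assembly at bacterial vacuoles, was at 7.73 FPKM in ApoE3 and 4.83 FPKM in ApoE4 at 7 dpi, and at 2.76 and 4.49 FPKM at 21 dpi. For these GBPs the ApoE3 level was the higher at 7 dpi and the lower at 21 dpi, but the latter no longer held for GBP5 once a shift of all genes, given below, was subtracted.

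GBP6 had the widest ratio among the GBP members at both time points. It was at 51.9 FPKM in ApoE3 and 29.2 FPKM in ApoE4 at 7 dpi, a 1.75-fold ratio, and at 15.3 and 33.6 FPKM at 21 dpi, a 2.12-fold ratio in the other direction. Its values are uncertain, because 64.5% of the 100-base stretches of its GENCODE vM21 transcripts are also in transcripts of other genes. The gene model Gm43302, which overlaps it on the same strand, holds 59.0% of them and its neighbour GBP10 holds 36.3%, so reads could be split between them. GBP3 and GBP9 were listed at 7 dpi only. GBP3 was at 50.7 FPKM in ApoE3 and 36.8 FPKM in ApoE4, and GBP9 at 20.9 and 15.7 FPKM. GBP9 had the smallest ratio of the members at 7 dpi, at 1.32-fold, just past the minimum.

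IRGM1, a GMS protein known as a regulator of autophagy and of the effector IRGs, had the highest FPKM of the members in every group. It was at 147 FPKM in ApoE3 and 96.2 FPKM in ApoE4 at 7 dpi, and at 82.1 and 127 FPKM at 21 dpi. IRGM2, also GMS, was at 9.73 FPKM in ApoE3 and 6.88 FPKM in ApoE4 at 7 dpi, and at 3.77 and 6.05 FPKM at 21 dpi. IGTP, the GMS protein also called IRGM3, was at 14.4 FPKM in ApoE3 and 8.64 FPKM in ApoE4 at 7 dpi, and at 8.93 and 13.6 FPKM at 21 dpi. The GMS genes had log2 ratios of 0.44 to 0.68 at 7 dpi, a span that also held GBP2, GBP3, GBP5 and GBP7. At 21 dpi their ratios were -0.63 to -0.56, with IIGP1 beside them at -0.63.

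IIGP1, the GKS effector also called Irga6, coats and ruptures the vacuoles of Toxoplasma. It was at 70.8 FPKM in ApoE3 and 34.9 FPKM in ApoE4 at 7 dpi, a 2.0-fold ratio and the widest of the members, and 47 of all listed genes had a higher ratio. At 21 dpi it was at 27.9 FPKM in ApoE3 and 43.7 FPKM in ApoE4, a 1.55-fold ratio toward ApoE4. Its position among the members thus changed from the widest ratio at 7 dpi to the third widest of 8 at 21 dpi.

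**Figure D1:**
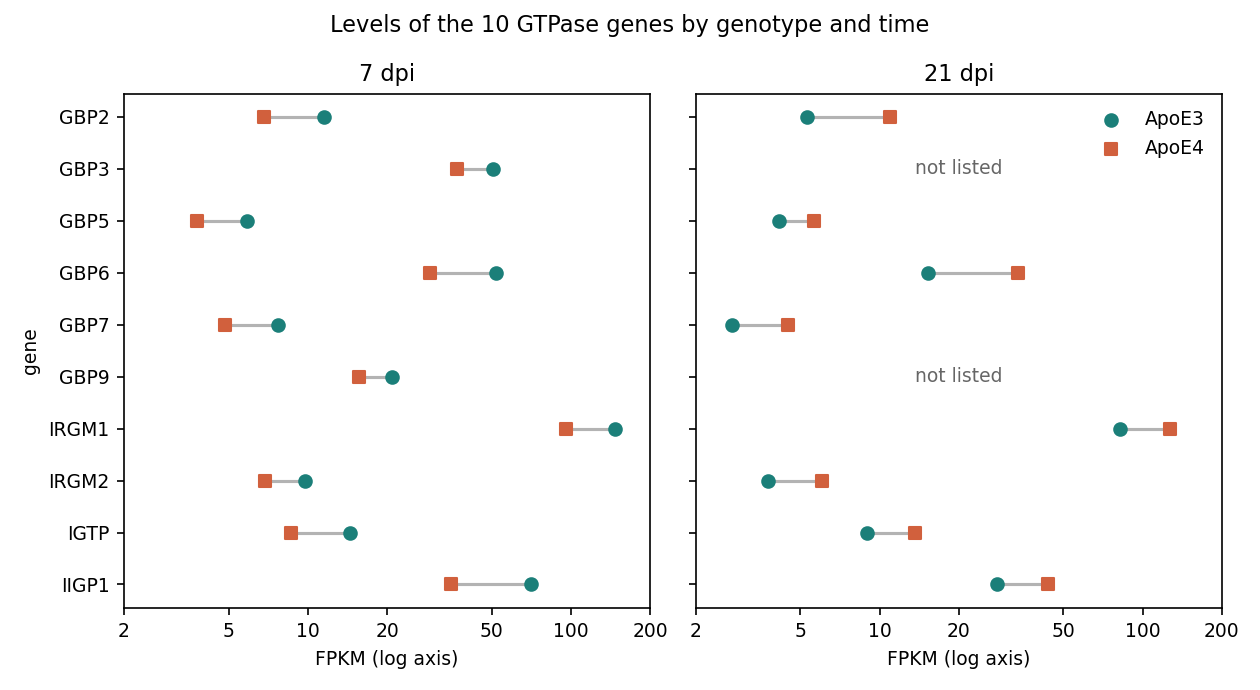
FPKM of each of the 10 genes on a log axis in ApoE3 (circles) and ApoE4 (squares) at 7 dpi (left) and 21 dpi (right), 1 value per group. The circle lies to the right for all 10 genes at 7 dpi and to the left for the 8 genes listed at 21 dpi, where most genes were shifted toward ApoE4.

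At 21 dpi, 7 of the 8 listed members were past 1.3-fold higher in ApoE4, but so were 58.9% of the 11472 listed genes. GBP5, at 1.29-fold with 1 added to each FPKM, was the exception. Genes that averaged at least 1 FPKM had a median log2 ratio of -0.42 at this time point, compared to 0.0018 at 7 dpi, and the FPKM of all genes summed to 1513867 in ApoE3 and 2050622 in ApoE4. The source of this shift was not tested. Of all genes past 1.3-fold at 21 dpi, 96.7% were higher in ApoE4, and 51.9% after the median was subtracted.

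Relative to the median gene, 2 of the 8 members, GBP2 and GBP6, were past 1.3-fold higher in ApoE4 at 21 dpi, where 8.06% of all listed genes were. GBP6 was at a relative log2 ratio of -0.66 and GBP2 at -0.50. IIGP1 at -0.21, IRGM1 at -0.20, IRGM2 and IGTP at -0.14 and GBP7 at -0.12 lay on the same side within 1.3-fold. GBP5 changed sides with the subtraction, from -0.36 to 0.06. The median of the 8 members moved from -0.59 to -0.17. Among all listed genes, 2.85% had a lower relative ratio than GBP6, 4.93% had a lower one than GBP2 and 18.5% had a lower one than IIGP1. The higher level in ApoE4 at 21 dpi was therefore beyond the shift of all genes by more than 1.3-fold for 2 of the 8, GBP2 and GBP6, and the values of GBP6 carry the shared sequence described above.

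**Figure D2:**
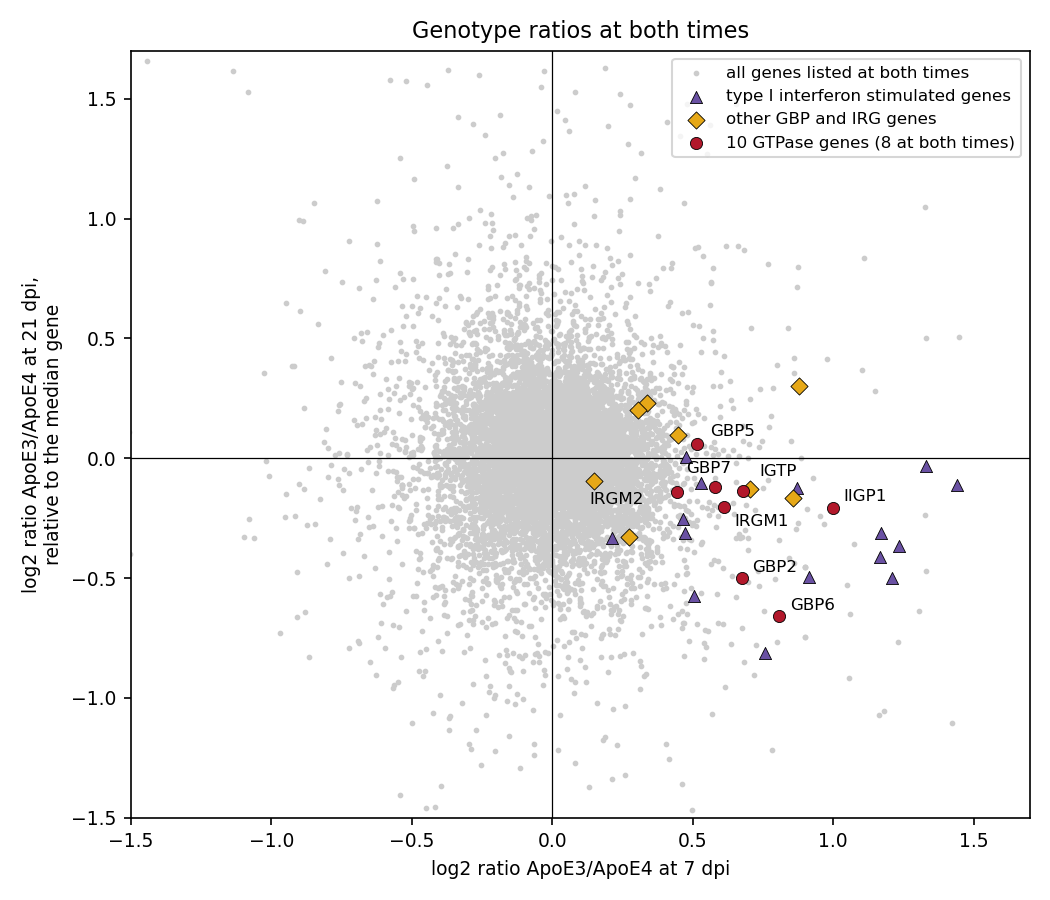
Log2 ratio ApoE3/ApoE4 at 7 dpi (x axis) against the ratio at 21 dpi minus the median of genes (y axis) for the 10879 genes listed at both times, of which 46 lie outside the axes. The 8 members (circles) lie between 0.44 and 1.0 on the x axis and between -0.66 and 0.06 on the y axis, 7 of them below 0.

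Changes from 7 to 21 dpi within a genotype set values from separate comparisons side by side, which were probably normalized separately, and they rest on the same 4 values as the ratios above. In ApoE3 all 8 members listed at both times were past 1.3-fold lower at 21 than at 7 dpi relative to the median gene, compared to 27.7% of the 10879 genes listed at both times. Their median relative log2 ratio was -1.17, and it ran from -0.50 for GBP5 to -1.78 for GBP6. In ApoE4, 0 of the 8 were past 1.3-fold higher, compared to 26.1% of all genes. GBP7 at -0.62 and IRGM2 at -0.69 were past 1.3-fold lower, a direction that 28.6% of all genes had. The median of the members in ApoE4 was -0.17, and 6 of the 8 lay within 1.3-fold of the median gene.

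The scaling decides the direction in ApoE4 for some members. Without subtracting the median of genes, which was 0.53 in ApoE4 and 0.09 in ApoE3, GBP2, GBP5, IRGM1 and IGTP were past 1.3-fold higher at 21 than at 7 dpi in ApoE4, or 4 of 8, compared to 59.0% of all genes. All 8 were past 1.3-fold lower in ApoE3, compared to 23.6% of all genes. The direction in ApoE3 was thus the same under both scalings for all 8 members.

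**Figure D3:**
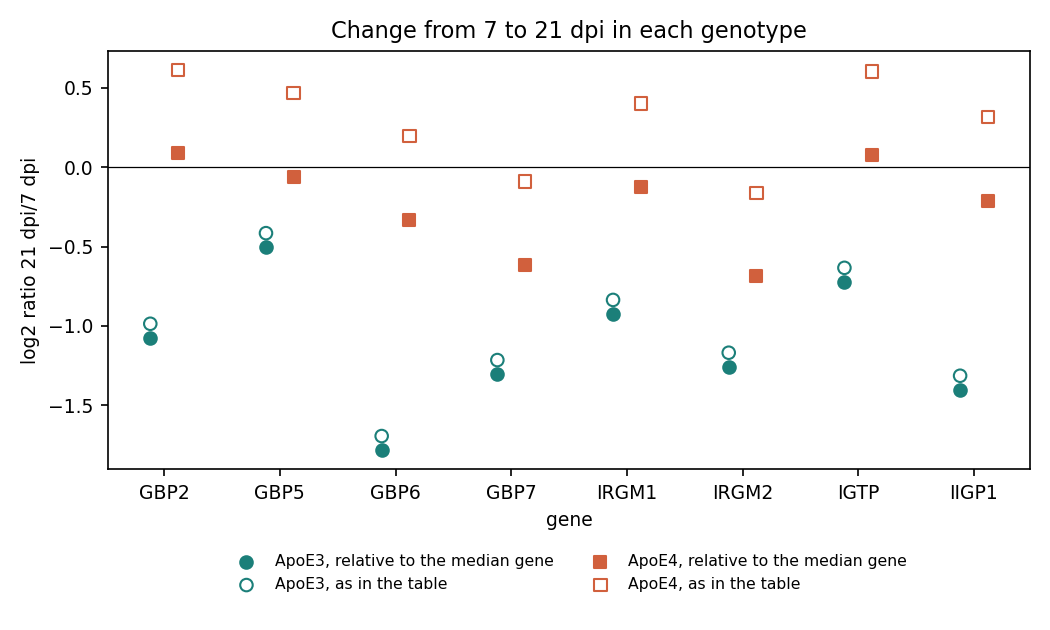
Log2 ratio of FPKM + 1 at 21 dpi over 7 dpi for the 8 members listed at both times, in ApoE3 (circles) and ApoE4 (squares), relative to the median gene (filled) or as in the table (open). In ApoE3 both kinds of value lie below 0 for every gene, from -0.50 to -1.78 when filled, whereas in ApoE4 the filled values lie between -0.69 and 0.09.

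Levels of different members cannot be ranked directly, because many deposited values are whole-number multiples. After 1 was subtracted, the values of 44.0% of genes were all a multiple, by a factor over 1, of numbers with 6 significant digits, as tested for factors up to 40. For 68.3% of those in the RefSeq table the factor equalled the number of RefSeq transcripts of the gene (GRCm38.p6), and of the genes with a single RefSeq transcript and a factor, 97.8% had a factor of 1. The factor was 6 for GBP3, 5 for GBP9 and IRGM1, and 4 for GBP6, and it equalled the number of RefSeq transcripts for all of these but GBP6, which has 7. It was 1 for GBP2, GBP5, GBP7, IRGM2 and IGTP, of which GBP7 has 2 RefSeq transcripts. No factor was found for IIGP1, which has 9. Divided by its factor, IRGM1 was at 29.5 FPKM in ApoE3 at 7 dpi and remained the highest of the 9, followed by IGTP at 14.4, GBP6 at 12.96 and GBP2 at 11.5 FPKM. GBP3 dropped from 50.7 to 8.44 FPKM and GBP9 from 20.9 to 4.19 FPKM, the lowest. The ratio between genotypes changed only through the 1 added to each value. It took GBP9 at 7 dpi to 0.33, within 1.3-fold.

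Several members are neighbours in the genome. In the RefSeq gene order GBP5, GBP7, GBP3, GBP2B and GBP2 follow each other without another protein-coding gene between them, and so do GBP8, GBP9, GBP4, GBP10 and GBP6. The members of the former cluster had log2 ratios of 0.45 for GBP3 to 0.68 for GBP2 at 7 dpi. In the latter cluster the ratios ran from 0.40 for GBP9 to 0.88 for GBP4. IGTP and IRGM2 lie side by side, overlap on the same strand in GENCODE vM21 and share 109 stretches of 100 bases, or 5.16% of those of IGTP and 3.01% of those of IRGM2. Of the stretches of GBP7, 9.59% are also in the pseudogene Gm43802, which overlaps it. No such stretch of GBP2, IRGM1 or IIGP1 was in a transcript of another gene, and their log2 ratios at 7 dpi were 0.68, 0.61 and 1.0. The part of shared sequence in the ratios was not tested.

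Of 15 other GBP and IRG genes, 10 were listed at 7 dpi, all with a positive ratio, and 5 were past 1.3-fold higher in ApoE3. Their median log2 ratio was 0.39. GBP4 was at 24.8 FPKM in ApoE3 and 13.03 FPKM in ApoE4. The paralogs TGTP1 and TGTP2, GKS proteins, had log2 ratios of 0.70 and 0.86, GM4951 of 1.17 and GBP10 of 0.45. At 21 dpi, 8 were listed, and 0 were past 1.3-fold in either direction relative to the median gene, with a median of 0.00083. Of these 8, 4 lay on each side of 0, with GBP4 the highest at 0.30.

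The genes whose ratios at 7 and 21 dpi lay nearest to the median of the members, of 10663 genes outside every list compared over the 4 groups, were PARP14, PARP9, USP29, IFI47 and 2210408F21RIK. Their Euclidean distances from it ran from 0.032 to 0.051 log2 units. IFI47, which encodes a further IRG that no list held, was at 23.3 FPKM in ApoE3 and 14.5 FPKM in ApoE4 at 7 dpi, and at 7.39 and 11.8 FPKM at 21 dpi. PARP14 was at 35.4 FPKM in ApoE3 and 23.5 FPKM in ApoE4 at 7 dpi, and at 10.1 and 16.1 FPKM at 21 dpi. In both genes ApoE3 at 7 dpi had the highest level and ApoE3 at 21 dpi the lowest, as in IIGP1. PARP9, USP29 and 2210408F21RIK had log2 ratios of 0.56 to 0.59 at 7 dpi and relative ratios of -0.22 to -0.18 at 21 dpi.

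IFNG, the gene of interferon-γ, was not listed at either time. Of 7 other genes of interferon-γ signaling that are reported here, 0 were past 1.3-fold at 7 dpi. The receptor chains IFNGR1 and IFNGR2 had log2 ratios of -0.10 and -0.19, and IRF1, a transcription factor that binds the ISRE, of -0.07. The median of these 7 was -0.14, and 6 of them had a negative ratio, whereas all 10 members had a positive one. At 21 dpi, 0 of 6 listed genes were past 1.3-fold relative to the median gene, with IFNGR2 at 0.07 and IRF1 at -0.02.

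Of the 6 genes of type I interferon signaling, 2 were past 1.3-fold higher in ApoE3 at 7 dpi. IRF7 was at 159 FPKM in ApoE3 and 81.9 FPKM in ApoE4, and STAT2 at 17.3 and 12.1 FPKM, and neither was listed at 21 dpi. The median of this list was 0.02. STAT2 and IRF7 are themselves induced by interferon. The 15 type I interferon stimulated genes (ISGs) mostly had the directions of the members. At 7 dpi 14 of the 15 were past 1.3-fold higher in ApoE3, and the median ratio was 0.87, and at 21 dpi 5 were past 1.3-fold higher in ApoE4 relative to the median gene, with a median of -0.31. IFIT3, for example, was at 372.7 FPKM in ApoE3 and 160.4 FPKM in ApoE4 at 7 dpi, and at 212 and 403 FPKM at 21 dpi. The ratios of IFIT2, ISG15 and OASL2 at 7 dpi were 1.17, 0.92 and 0.87, and those of OAS1A and CMPK2 were 0.50 and 0.46. From 7 to 21 dpi, all 15 ISGs were past 1.3-fold lower in ApoE3 relative to the median gene, with a median of -1.09, whereas in ApoE4 5 were higher and 4 lower, with a median of 0.02. The members thus had a median ratio smaller in size than that of the ISGs at both time points, a difference that was not tested.

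Other targets of interferon-γ were mixed. Of 14 genes, which act in antigen presentation, chemotaxis and metabolism, 10 were listed at 7 dpi and 3 were past 1.3-fold higher in ApoE3. The median ratio was 0.13. The chemokine CXCL10 was at 34.2 FPKM in ApoE3 and 13.04 FPKM in ApoE4, and CXCL9 at 1.40 and 0.484 FPKM. BATF2 had a ratio of 0.44 and SERPING1, a complement inhibitor, of 0.03. At 21 dpi, 6 were listed, of which SERPING1 was past 1.3-fold higher in ApoE3 at 0.92 and CXCL9 higher in ApoE4 at -0.52, relative to the median gene. Of 16 autophagy and inflammasome genes, with which GBPs and IRGs act, NLRP3 alone was past 1.3-fold at 7 dpi, at -0.43, and the median was -0.04. At 21 dpi, 1 of 15 was past 1.3-fold, CASP1 at -0.42 relative to the median gene. The members were therefore higher in ApoE3 at 7 dpi beside ATG and caspase genes whose ratios lay within 1.3-fold.

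**Figure D4:**
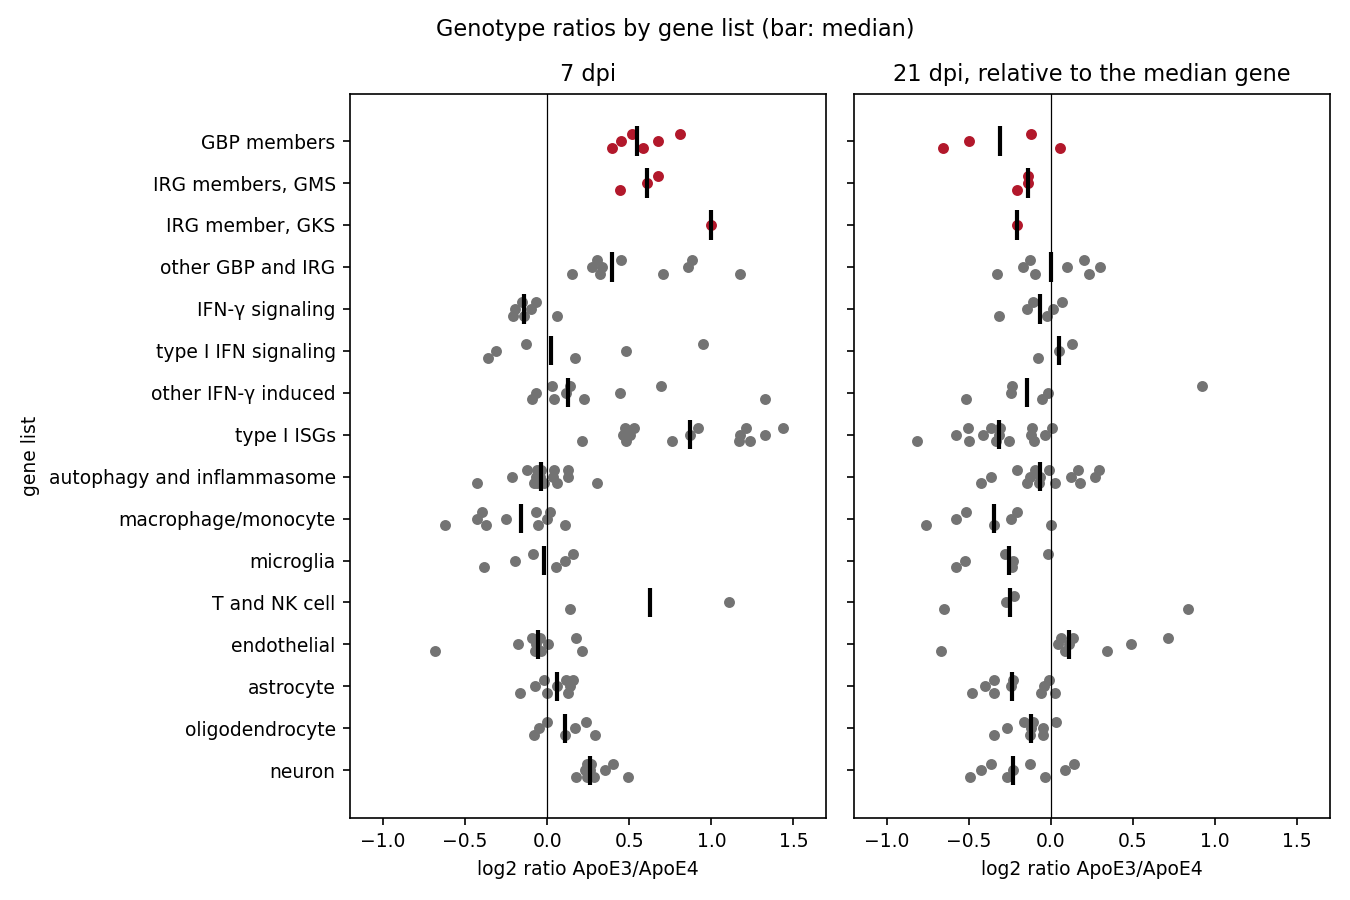
Log2 ratio ApoE3/ApoE4 of each listed gene (points) by gene list at 7 dpi (left) and at 21 dpi relative to the median gene (right), with the median of each list as a bar. At 7 dpi the points of the members lie between 0.40 and 1.0, and the medians of the marker lists between -0.16 and 0.26, except that of the 2 listed T and NK cell markers at 0.62.

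Cell type markers are given beside these results, and their part in them was not tested. Macrophage and monocyte markers summed to 6652 FPKM in ApoE3 and 8650 FPKM in ApoE4 at 7 dpi, led by LYZ2, and 3 of 10, LYZ2, MSR1 and CD14, were past 1.3-fold higher in ApoE4, with a median log2 ratio of -0.16. The other 7 lay within 1.3-fold, and of all 10, 8 had a negative ratio and 2, CSF1R at 0.11 and ADGRE1 at 0.02, a positive one. At 21 dpi the 7 listed markers summed to 496 FPKM in ApoE3 and 942 FPKM in ApoE4, and LYZ2, ADGRE1 and AIF1 were past 1.3-fold higher in ApoE4 relative to the median gene, with a median of -0.34. From 7 to 21 dpi, the median of these markers was -1.80 in ApoE3 and -1.72 in ApoE4, relative to the median gene. All 7 were past 1.3-fold lower in ApoE3 and 6 in ApoE4, whereas the members had medians of -1.17 in ApoE3 and -0.17 in ApoE4. Sums at 7 and 21 dpi cover different listed genes, and each carries the factors described above.

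Microglia markers, of which 6 of 9 were listed at 7 dpi, summed to 570 FPKM in ApoE3 and 641 FPKM in ApoE4, led by FCRLS. FCRLS was also past 1.3-fold higher in ApoE4, and the median was -0.02. P2RY12 and CX3CR1 were not listed at either time. The 6 listed at 21 dpi summed to 283 and 509 FPKM, led by SIGLECH, and FCRLS and SIGLECH were past 1.3-fold higher in ApoE4 relative to the median gene, with a median of -0.26. Among 16 T and NK cell markers, which would mark sources of interferon-γ, LCK and CCL5 were listed at 7 dpi, and CD3G and NKG7 as well at 21 dpi. CD3D, CD3E, CD4 and CD8A were not listed at either time. LCK was at 11.5 FPKM in ApoE3 and 4.79 FPKM in ApoE4 at 7 dpi, and at 11.0 and 8.06 FPKM at 21 dpi. CCL5, which other cells also make, was at 10.9 FPKM in ApoE3 and 9.78 FPKM in ApoE4 at 7 dpi, and at 16.0 and 34.8 FPKM at 21 dpi. The list summed to 22.4, 14.6, 28.7 and 46.8 FPKM in ApoE3 and ApoE4 at 7 dpi and in ApoE3 and ApoE4 at 21 dpi. Relative to the median gene at 21 dpi, LCK was at 0.84, whereas CD3G, NKG7 and CCL5 were at -0.23, -0.28 and -0.65.

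The defining markers of spinal cord were present in all groups. Neuron markers summed to 5868 FPKM in ApoE3 and 4629 FPKM in ApoE4 at 7 dpi and to 8299 and 12386 FPKM at 21 dpi, led by SNAP25. All 10 had a positive ratio at 7 dpi, as the members had, with a median of 0.26, and SNAP25 and CHAT were past 1.3-fold. At 21 dpi the median was -0.23 relative to the median gene, with NEFM and NEFH past 1.3-fold higher in ApoE4. SYT1 and TUBB3 lay above 0 there, at 0.14 and 0.09. From 7 to 21 dpi the median of the neuron markers was 0.64 in ApoE3 and 1.13 in ApoE4 relative to the median gene, whereas that of the members was below 0 in both. Astrocyte markers summed to 17916 FPKM in ApoE3 and 17458 FPKM in ApoE4 at 7 dpi and to 14673 and 25226 FPKM at 21 dpi, led by GFAP. Their median was 0.06 at 7 dpi with 0 of 9 past 1.3-fold. At 21 dpi it was -0.23 relative to the median gene, with GFAP and AQP4 past 1.3-fold higher in ApoE4. Oligodendrocyte markers, led by MBP, summed to 127588 FPKM in ApoE3 and 134671 FPKM in ApoE4 at 7 dpi and to 228382 and 321862 FPKM at 21 dpi. Their medians were 0.11 at 7 dpi and, relative to the median gene, -0.12 at 21 dpi, with 0 past 1.3-fold at either time on these scales. Endothelial markers, led by FLT1, summed to 305 and 318 FPKM at 7 dpi and to 311 and 375 FPKM at 21 dpi. Their median was -0.05 at 7 dpi, with VWF past 1.3-fold higher in ApoE4. At 21 dpi it was 0.11 relative to the median gene, with VWF and CDH5 past 1.3-fold higher in ApoE3 and EMCN in ApoE4. Without that subtraction, VWF at 0.29 and CDH5 at 0.07 lay within 1.3-fold, and EMCN was at -1.09. The ratios of the members at 7 dpi, from 0.40 to 1.0, overlapped with those of the neuron markers, of which SNAP25 was at 0.40 and CHAT at 0.49.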

How the data were processed

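RNA of the lesion segment was sequenced from male ApoE3 and ApoE4 mice at 7 and 21 dpi. The submitters' notes name STAR 2.5.4b, Bowtie2 2.1.10, SAMtools 0.1.7 and Cuffdiff 1.3.0, and libraries were down-sampled to equal read numbers. The genome build is not given in the sources used here. In 1 replicate, whose group is not named, fewer reads aligned. The authors deposited, for each gene listed at a time point, the FPKM of a group with 1 added, which was subtracted. Their fold changes, log2 fold changes, p-values, q-values and significance calls, and their second table of differentially expressed genes, were not used.

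Log2 ratios used a pseudocount of 1. Relative ratios subtract the median over genes averaging at least 1 FPKM. With 1 value per group no test was run. Symbols matched RefSeq (GRCm38.p6) for 14556 of 14718 genes. Shared sequence means exact 100-base stretches on either strand. Named genes were the members, up to 6 genes of each list past 1.3-fold by mean FPKM, and IFNG, IFNGR1, IFNGR2, IRF1, STAT2 and IRF7. Others, such as markers that were not listed, were chosen after their values were seen. Of the planned lists, 1 gene of interferon-γ signaling and 1 microglia marker are not reported here and were left out of every count, sum and median of their list. The members and lists were chosen with earlier results of these data known. Alternatives were a pseudocount of 0.1, folds of 1.5 and 2, a minimum of 1 FPKM, other centring and an extended family. Python 3.11.15, numpy 2.4.6, pandas 2.3.3 and matplotlib 3.10.9 were used, and the procedures were tested on simulated data.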

Additional observations from a re-analysis of the deposited data

Results flagged for a closer look

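The ratio between genotypes had opposite signs at 7 and 21 dpi, the latter relative to the median gene, for 7 of the 8 members listed at both times, compared to 51.8% of the 10879 genes listed at both. Of these genes, 418 were past 1.3-fold higher in ApoE3 at 7 dpi, as the members were, and 58.4% of those were below 0 at 21 dpi. The difference between the time points was not tested, and the medians of the type I ISGs, from 0.87 to -0.31, and of the neuron markers, from 0.26 to -0.23, changed sign as well. The median of the members was 0.60 at 7 dpi and -0.17 at 21 dpi. GBP2 went from 0.68 to -0.50 and GBP6 from 0.81 to -0.66. IIGP1 went from 1.0 to -0.21, IRGM1 from 0.61 to -0.20, IRGM2 from 0.44 to -0.14, IGTP from 0.68 to -0.14 and GBP7 from 0.58 to -0.12. For these 5 genes the value at 21 dpi lay within 1.3-fold of the median gene. GBP5 had a positive ratio at both times, 0.52 and 0.06.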

How the results depend on the processing

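No paired analysis was possible because each group has 1 value per gene and no test was run. At 7 dpi the number of members higher in ApoE3 was 5 at a fold of 1.5 and 1 at a fold of 2, beside 1.22% and 0.34% of all genes. At 21 dpi the number higher in ApoE4 was 4 and 1 at these folds, beside 23.0% and 3.77% of all genes. It was 2 relative to the median of genes or, an alternative chosen after seeing the data, to the total FPKM, beside 8.06% and 7.55% of all genes. The number lower at 21 than at 7 dpi in ApoE3 was 5 at a fold of 2, beside 8.52% of all genes. The number higher in ApoE4 was 4 without subtracting the median of genes, beside 59.0% of all genes.

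The median log2 ratio was 0.64 at 7 dpi and -0.66 at 21 dpi, or -0.21 relative to the median gene, with a pseudocount of 0.1. With the other GBP and IRG genes it was 0.55, -0.56 and -0.13. With values divided by their whole-number factor, also chosen after seeing the data and without IIGP1, it was 0.58, -0.56 and -0.15, and the relative value was -0.16 when scaled to the total FPKM. The factor took 2 members at 7 dpi, GBP9 and, since it has no factor, IIGP1, out of the count.

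Of the 18 ratios of single members, all kept their sign and 17 their side of 1.3-fold with a pseudocount of 0.1, which took GBP5 at 21 dpi to -0.43, so that 8 of 8 members were past 1.3-fold higher in ApoE4, beside 62.4% of all genes. Relative to the median of genes 17 kept their sign, all but GBP5 at 21 dpi, and 13 kept their side of 1.3-fold. The cause of these moves beyond the settings themselves was not tested. FPKM keep no read numbers, so the precision of low members such as GBP5 and GBP7 is unknown. The reading of the genotype columns limits every genotype direction. The study's own report for the later time point has the direction of the reading used, as given above. A possible separate normalization of the time points limits the changes from 7 to 21 dpi, and shared sequence limits the values of GBP6.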
